A study of Mus musculus with 10 samples.

Results

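Dbp, Tef, Hlf, Nfil3, Bhlhe40, Bhlhe41 and Ciart are transcription regulators through which the circadian clock acts on D-box and E-box genes. They were chosen by symbol, and all 7 were found among the 24736 gene symbols of the deposited mRNA table. The libraries were made from eyeballs of female mice of the outbred Kunming (KM) stock, given as 4 weeks old, and the sample titles carry day 14. Control A and B came from mice in natural light, and blue A, B and C from mice under an 18 W blue lamp inside a dark container, with no genetic change named for either group. Nothing in the labels ties each library to its own animal, so a p-value here measures the spread between libraries, and that spread may be technical. Neither the hour of collection nor the lighting schedule is given in the sources used here.

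The clock of mammals is a feedback loop in which CLOCK and BMAL1 bind E-boxes and switch on their own repressors. DBP, TEF and HLF, the PAR bZIP activators, carry the rhythm onward by binding D-boxes, and NFIL3 (E4BP4) represses from the same sites. BHLHE40 (DEC1) and BHLHE41 (DEC2) compete for E-boxes and dampen CLOCK and BMAL1, and CIART (CHRONO) represses BMAL1. In many tissues Dbp and Nfil3 mRNA peak at opposite times of day. The retina has a clock of its own, which light resets.

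Promoters of 6 of the 7 genes were matched in the RefSeq table (GRCm38.p6, the assembly also called mm10), in 7 windows from 250 bases before to 50 bases after a start site, because Tef has 2 starts. Bhlhe40 was not matched. The Nfil3 window, chr13:52980990-52981289, lies wholly inside the gene span, which runs to 52982878 on the minus strand. The upstream end of the Nfil3 span was thus not searched. For Dbp and Ciart too the start site used lies inside the gene span. The motifs searched on both strands were the E-box CACGTG, its variant CACGTT, the D-boxes TTATGTAA and TTACGTAA, the RORE cores TAGGTCA and TGGGTCA, and the cAMP response element TGACGTCA. CACGTG, TTACGTAA and TGACGTCA read the same on both strands, and no matches overlapped one another in these windows. The stretches that hold a match are shown because they hold letters that clock or cAMP-responsive factors are known to bind. Capitals mark the match, and positions count from the start site, with the base just before it as -1.
Ciart, 3 E-boxes, -131 to -24, chr3:95882252-95882359, minus strand: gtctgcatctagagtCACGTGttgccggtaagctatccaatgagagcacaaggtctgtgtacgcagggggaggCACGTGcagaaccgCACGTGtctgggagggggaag
Tef, first start, 1 E-box, -142 to -107, chr15:81802531-81802566, plus strand: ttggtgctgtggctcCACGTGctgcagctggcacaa
Tef, second start, 1 E-box, -153 to -118, chr15:81811261-81811296, plus strand: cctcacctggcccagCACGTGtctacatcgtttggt
Bhlhe41, 1 E-box, -168 to -133, chr6:145865553-145865588, minus strand: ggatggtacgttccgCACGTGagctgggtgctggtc
Nfil3, 1 RORE core (TAGGTCA on the other strand), -27 to 10, chr13:52981030-52981066, minus strand: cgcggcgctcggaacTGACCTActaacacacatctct
Hlf, 1 cAMP response element, -24 to 14, chr11:90390904-90390941, minus strand: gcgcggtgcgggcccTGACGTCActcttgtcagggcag

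Among all 32851 windows of the same length 7.15% held a CACGTG, 4.68% a CACGTT, 6.45% a RORE core, 1.79% a TGACGTCA and 1.06% a D-box. No motif was found in the Dbp window, and neither a D-box nor a CACGTT in any of the 7. That says only that these letters are not within this stretch.

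After 14 days, at an hour not given, none of the regulators differed in level between blue and natural light beyond the spread between libraries. Levels are CPM (counts scaled to a common library total) after TMM scaling, which corrects library totals for composition, and the log2 fold change (log2FC) is blue minus natural light. Of the 7 regulators 0 rose and 0 fell in edgeR at an adjusted p under 0.05, where 0.664% of 18988 tested genes rose and 1.55% fell. None had an unadjusted p under 0.05, against 16.3% of all tested genes, and 0 passed in DESeq2 (9.04% of its genes) or in limma-voom (2.41%). In 0 of the 7 were the groups free of overlap, whereas all blue libraries lay above both controls for 15.6% of tested genes and below both for 20.1%. The median log2FC of the 7 was 0.0038, with 5 values above 0 and 2 below, beside -0.0056 over all tested genes. Their median absolute log2FC was 0.11, and that of all tested genes 0.18.

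**Figure D1:**
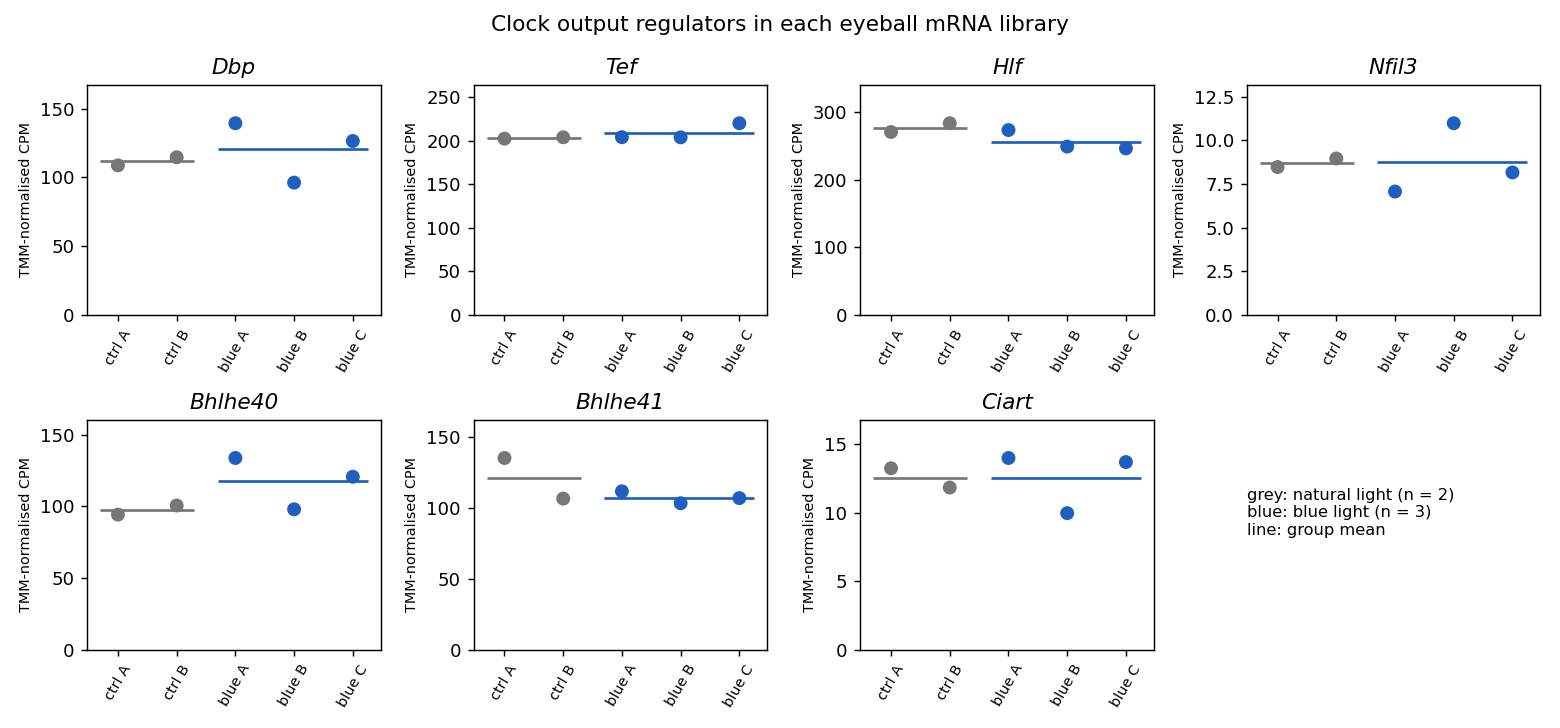
TMM-normalised CPM of each regulator (vertical axes start at 0) in the 2 natural light (grey) and 3 blue light (blue) libraries, with lines at the group means. The groups overlap in every panel, and Nfil3 in blue B stands opposite to Dbp and Ciart.

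Dbp, the PAR bZIP gene known for a large daily swing of its mRNA, lies on chromosome 7 from 45705100 to 45710203 (mm10, as all gene positions here). It stood at 109 and 115 CPM under natural light, against 140, 96.3 and 127 CPM in blue A to C. Blue A and C lay above both controls and blue B below both. The means were 112 ± 4.16 CPM (SD, n = 2) and 121 ± 22.2 CPM (SD, n = 3), a log2FC of 0.11 (SE 0.16, adjusted p = 0.795 in edgeR). Its span overlaps by 741 bases that of the sphingosine kinase gene Sphk2, which stood at 59.9 CPM in the controls on average, against 52.4 CPM under blue light. Whether the counting used strand is not stated, and with the counts of both genes summed the log2FC was 0.012 (adjusted p = 0.974). Without blue B that of Dbp was 0.27, with an unadjusted p of 0.031 and an adjusted p of 0.269 in edgeR. In that fit 2917 of 18714 tested genes had an unadjusted p under 0.05. The log2FC of Dbp was 0.014 without blue A, 0.077 without blue C, 0.10 without control A and 0.15 without control B.

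Tef, the PAR bZIP gene first described in the pituitary, lies on chromosome 15 from 81802673 to 81826863. Its levels were 202 and 204 CPM under natural light, against 204, 204 and 220 CPM in blue A to C. Blue C was the highest of the 5 libraries, blue B lay between the controls, and blue A stood level with control B to 3 digits. The log2FC was 0.043 (SE 0.069, adjusted p = 0.822 in edgeR), with a 95% interval from 0.916-fold to 1.16-fold.

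Hlf, the third PAR bZIP gene, on chromosome 11 from 90336535 to 90390917, stood at 271 and 284 CPM in the controls. In the blue libraries it stood at 274, 249 and 247 CPM. Blue B and C lay below both controls and blue A between them. The means were 278 ± 9.19 CPM (SD, n = 2) and 257 ± 15.0 CPM (SD, n = 3), a log2FC of -0.11 (SE 0.077, adjusted p = 0.541 in edgeR).

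Nfil3, the D-box repressor, which cytokines and hormones also induce in immune and liver cells, lies on chromosome 13 from 52967209 to 52982878. It had 8.47 and 8.96 CPM under natural light, against 7.07, 11.0 and 8.16 CPM in blue A to C. The blue libraries enclosed the controls, with A and C below and B above them. The log2FC was 0.0038 (SE 0.21, adjusted p = 0.996 in edgeR), and its 95% interval ran from 0.702-fold to 1.43-fold. With 714 to 1179 estimated counts per library for Nfil3 and 957 to 1473 for Ciart, the 2 genes had the fewest counts of the 7, and their intervals were the widest.

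Bhlhe40, the E-box repressor that hypoxia and growth signals also induce, had the largest log2FC and the smallest p of the set. The gene lies on chromosome 6 from 108660629 to 108666925. Its levels were 94.1 and 100 CPM under natural light, against 134, 97.8 and 121 CPM in blue A to C, so that blue A and C stood above both controls and blue B between them. The means were 97.3 ± 4.52 CPM (SD, n = 2) and 117 ± 18.1 CPM (SD, n = 3). The log2FC of 0.27 (SE 0.14) did not pass, with an unadjusted p of 0.103 and an adjusted p of 0.415 in edgeR. Without blue B it was 0.41, with an unadjusted p of 0.0080 and an adjusted p of 0.149. Without blue A it was 0.18, with an unadjusted p of 0.184 and an adjusted p of 0.565. It was 0.25 without blue C, 0.25 without control A and 0.32 without control B.

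Bhlhe41, its paralogue, on chromosome 6 from 145858243 to 145865420, pointed the other way. It stood at 135 and 107 CPM under natural light, against 112, 103 and 107 CPM in blue A to C. Control A alone stood apart, and control B fell among the blue libraries. The log2FC was -0.17 (SE 0.11, adjusted p = 0.528 in edgeR), without control A it was 0.036 (adjusted p = 0.921), and without control B it was -0.33, with an unadjusted p of 0.016 and an adjusted p of 0.241. In 1 library the estimated counts of Bhlhe40 and Bhlhe41 can be set against each other free of any scaling. The log2 ratio of Bhlhe40 to Bhlhe41 was -0.53 and -0.087 under natural light, against 0.26, -0.081 and 0.17 in blue A to C. The groups did not overlap, although control B and blue B nearly met. The exact 2-sided permutation p was 0.1, the smallest that 10 assignments of the labels can give, and 0.8 after adjustment over the 8 ratios computed.

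Ciart, the gene of the BMAL1 repressor CHRONO with the 3 E-boxes shown above, lies on chromosome 3 from 95878500 to 95882257. It had 13.2 and 11.8 CPM under natural light, against 14.0, 9.96 and 13.7 CPM in blue A to C. Blue A and C lay above both controls and blue B below both, as for Dbp. The log2FC was 0.0010 (SE 0.18, adjusted p = 0.999 in edgeR). The whole gene lies inside the span of the long noncoding gene C920021L13Rik, which stood at 2.82 CPM in the controls on average, against 2.10 CPM under blue light. With their counts summed the log2FC was -0.069 (adjusted p = 0.895).

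**Figure D2:**
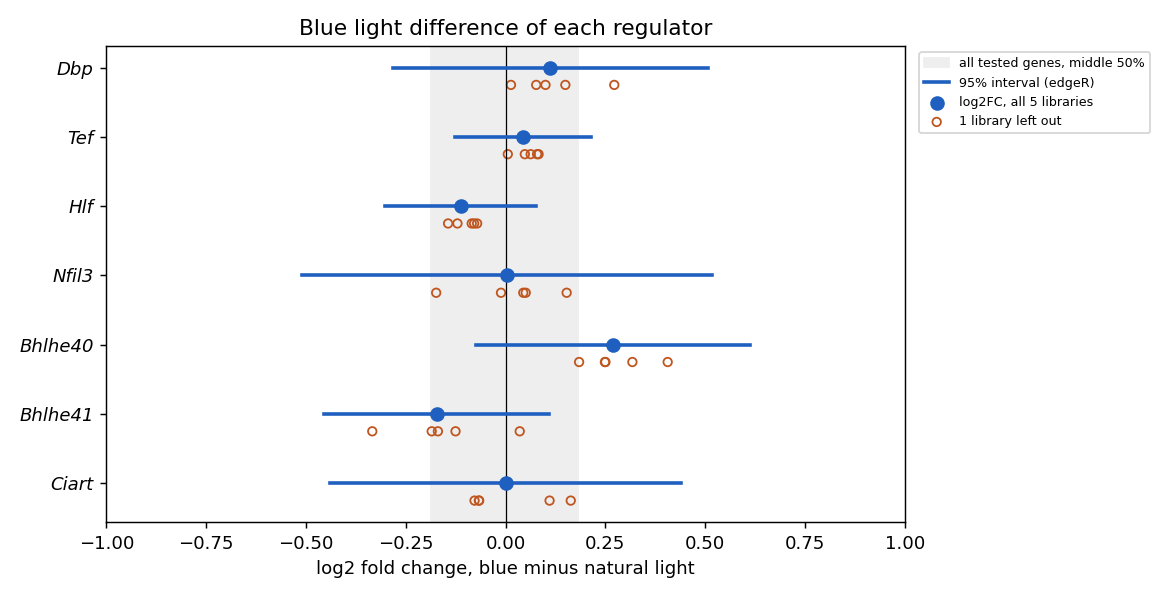
Log2 fold change of each regulator (horizontal axis, blue minus natural light) with its 95% interval in edgeR, the same value with 1 library left out (open circles), and the middle 50% of all tested genes as a grey band. All 7 intervals cross 0, and Bhlhe40 and Bhlhe41 lie farthest from it, on opposite sides.

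The size of difference that these libraries leave room for can be read from the intervals. The lowest bound of the 7 was 0.702-fold, for Nfil3, and the highest 1.53-fold, for Bhlhe40. With 1 library left out the bounds widened to between 0.588-fold, for Nfil3, and 1.77-fold, for Bhlhe40. A p that misses the threshold does not show that levels were equal. With the hour of collection not given, a change in the time or size of a daily rhythm cannot be read from these levels. An eyeball sample averages retina, lens, cornea and attached tissue, so fewer cells of a type and less RNA per cell cannot be told apart, and opposite changes in different tissues would not be seen.

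The spread within the blue group was uneven across the regulators. Dbp was 1.45-fold, Ciart 1.40-fold and Bhlhe40 1.37-fold higher in blue A than in blue B, whereas Nfil3 in blue A was at 0.644-fold of its level in blue B. Across the 3 blue libraries the SD of log2 CPM was 0.32 for Nfil3, 0.28 for Dbp, 0.27 for Ciart and 0.23 for Bhlhe40. It was 0.083 for Hlf, 0.063 for Tef and 0.056 for Bhlhe41, and the median over all tested genes was 0.16. Thus 4 regulators stood above that median and 3 below it. The controls lay close together for most of the set, with 0.076 between them on the log2 scale for Dbp, 0.081 for Nfil3 and 0.16 for Ciart, against a median of 0.19 for all tested genes and 0.34 for Bhlhe41.

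Dbp, Bhlhe40, Bhlhe41 and Ciart shared the order of blue A highest, then C, then B, an order held by 19.8% of all tested genes. Nfil3 had the reverse order, as did 21.0% of all tested genes. Both orders were picked after the values of the regulators were seen, so counts of them, here and for the marker lists, are description only. The log2 ratio of Dbp to Nfil3, the activator against the repressor of the same sites, was 3.68 in both controls, against 4.30, 3.13 and 3.95 in blue A to C. The control values thus fell inside the range of the blue ones, and the mean ratio was 0.12 higher under blue light (exact 2-sided permutation p = 0.6, adjusted p = 0.933 over 8 ratios). Of 19 core clock genes 7 had the order A, C, B and 6 the reverse. Outside the naming rule, and chosen after its values were seen, was Nr1d1, the gene of the BMAL1 repressor REV-ERB alpha. Nr1d1 stood at 190, 137 and 184 CPM in blue A, B and C and at 241 and 202 CPM in the controls. Its log2FC was -0.38 (adjusted p = 0.327 in edgeR).

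Of 10 marker lists of eye and other cell types, 4 had the order A, C, B in the blue libraries, 3 its reverse and 3 another order. The level of a list is the mean of its members' log2 CPM after each member's mean over the 5 libraries is subtracted. In blue A, B and C it was 1.41, -0.58 and 1.21 for 8 adipocyte genes, 0.61, -0.42 and -0.35 for 12 skeletal muscle genes and 0.85, 0.22 and 0.41 for 10 microglia and macrophage genes, all in the order A, C, B, which the lens list shared. Those of 10 rod genes were -1.13, -0.34 and -0.64, in the reverse order, as for Nfil3 and for the cone and pigment epithelium lists. The lists for Muller glia, corneal epithelium and red blood cells followed neither order. The 8 adipocyte genes were at low levels. They summed to 26.4 and 33.7 CPM in control A and B, against 46.6, 33.7 and 41.7 CPM in blue A to C. In control A and B the adipocyte list stood at -1.20 and -0.84, the muscle list at -0.47 and 0.63, the microglia and macrophage list at -1.09 and -0.39, and the rod list at 1.09 and 1.02. The part of these tissues in the differences between libraries was not tested. With the muscle level as a covariate Bhlhe40 had a log2FC of 0.29 (unadjusted p = 0.046, adjusted p = 0.230 in edgeR). In that fit 3970 of 18988 tested genes had an unadjusted p under 0.05, and Bhlhe40 alone among the regulators.

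**Figure D3:**
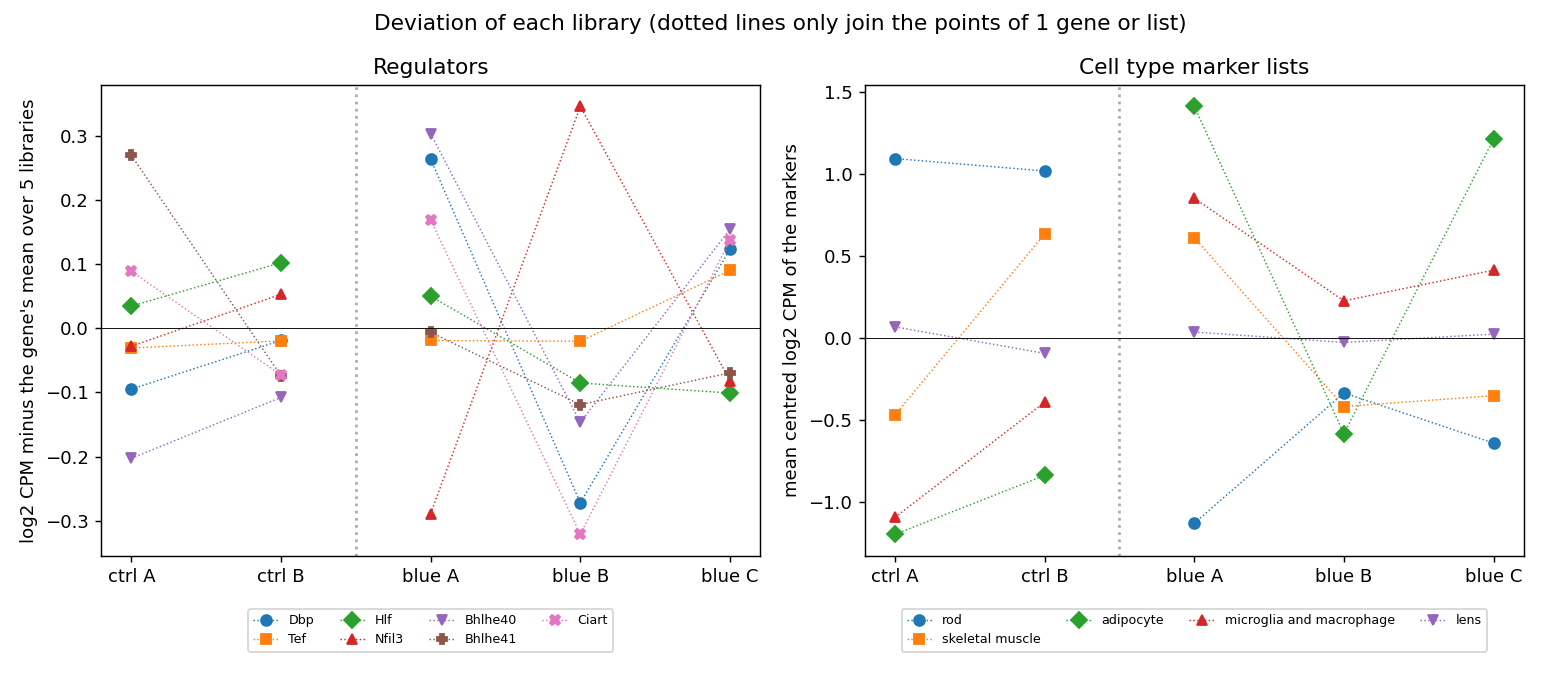
Left, log2 CPM of each regulator minus its mean over the 5 libraries; right, the level of 5 marker lists; libraries run along the horizontal axis and dotted lines only join points of 1 gene or list. In blue B Nfil3 stands at 0.35 while Dbp and Ciart stand at -0.27 and -0.32, and the lens level stays between -0.095 and 0.066.

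Markers of the tissues of the eyeball were looked up in the libraries. No marker listed for rods, cones, Muller glia, pigment epithelium, lens or cornea was at 0 in all 5 libraries. That held for the muscle, adipocyte, red blood cell and microglia and macrophage lists too. Between 19787 and 20142 symbols were above 0 in each library, so this does not show which tissues were sampled. The 10 rod genes summed to 22569 to 23875 CPM under natural light, against 4138 to 7653 CPM under blue light. Of these 10 genes 9 fell in edgeR, beside 1.55% of all tested genes, with a median log2FC of -1.71. Among the other lists 1 of 6 cone genes fell. In the Muller glia list 1 of 8 genes rose, as did 1 of 8 adipocyte genes, beside 0.664% of all tested genes. The 10 lens genes had a median log2FC of 0.0069, and 0 of them passed in edgeR. Muscle genes summed to 2210 to 4703 CPM and red blood cell genes to 42.7 to 80.4 CPM over the 5 libraries.

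The genes most like the leading regulators were sought among 12445 others with a mean of at least 5 CPM. Symbols of the Gm or Rik form were left out. Likeness was the root mean square difference over the 5 libraries between log2 CPM values centred on each gene's mean. Nearest to Bhlhe40 were Adamtsl4 (0.019), Arpc1b (0.020) and Zfp710 (0.034), with log2FC of 0.26, 0.28 and 0.28. Nearest to Bhlhe41 were Nop10 (0.020), Csnk2a1 (0.023) and Igip (0.029), with log2FC of -0.14, -0.15 and -0.14. None of these 6 genes passed in edgeR, with adjusted p from 0.349 to 0.713. The genes were picked on these same 5 libraries, so log2FC near those of Bhlhe40 and Bhlhe41 follow from the choice.

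In the core loop that drives the regulators, 1 of 19 genes fell and 0 rose, with a median log2FC of -0.0028. Over all tested genes 1.55% fell and 0.664% rose. Arntl, which encodes BMAL1, stood at 75.7 and 70.2 CPM under natural light, against 42.2, 48.0 and 47.3 CPM in blue A to C. All blue libraries lay below both controls, and it fell by 0.67 in log2FC, with an SE of 0.089 and an adjusted p of 0.0281 in edgeR. The call was lost without control A (-0.59, adjusted p = 0.201), without control B (-0.72, 0.114), without blue B (-0.69, 0.0624) and without blue C (-0.69, 0.112), and with library totals as the only scaling (-0.63, 0.0771). DESeq2 called 3 of the 19, against 9.04% of all its genes, and limma-voom 1, against 2.41%. An unadjusted edgeR p under 0.05 was found for 4 of the 19, against 16.3% of all tested genes.

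The other genes named from the loop did not pass in edgeR. The repressor gene Per2 stood at 41.6 and 41.5 CPM under natural light, against 61.8, 52.4 and 59.9 CPM in blue A to C (log2FC 0.48, adjusted p = 0.0756 in edgeR). Every blue library lay above both controls. Btrc, a ubiquitin ligase subunit for PER proteins, had a log2FC of -0.35 (adjusted p = 0.266), which was -0.12 without control A and -0.53 without control B. In the list 2 of 19 genes had all blue libraries above both controls and 6 had them below, beside 15.6% and 20.1% of all tested genes.

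Of 12 other clock output genes that cycle in many mouse tissues, 0 rose and 0 fell in edgeR, while DESeq2 called 6, limma-voom called 0, and 7 had an unadjusted edgeR p under 0.05. The median log2FC was 0.18. Nampt, the rate-limiting enzyme of NAD salvage, stood at 62.9 and 64.3 CPM under natural light, against 105, 78.3 and 93.2 CPM in blue A to C (log2FC 0.54, adjusted p = 0.129). The glucocorticoid-induced Tsc22d3 had a log2FC of 0.40 (adjusted p = 0.130) and the ubiquitin ligase gene Lonrf3 one of 0.70 (adjusted p = 0.132). Usp2, a ubiquitin protease whose mRNA cycles much as Dbp does in liver, stood at 99.4 and 86.3 CPM under natural light, against 72.4, 65.9 and 74.6 CPM in blue A to C (log2FC -0.39, adjusted p = 0.131). In this list 6 genes had all blue libraries above both controls and 2 had them below, beside 15.6% and 20.1% of all tested genes. The shares over all tested genes were 9.04% for a DESeq2 call and 16.3% for an unadjusted edgeR p under 0.05, here and for the lists that follow.

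**Figure D4:**
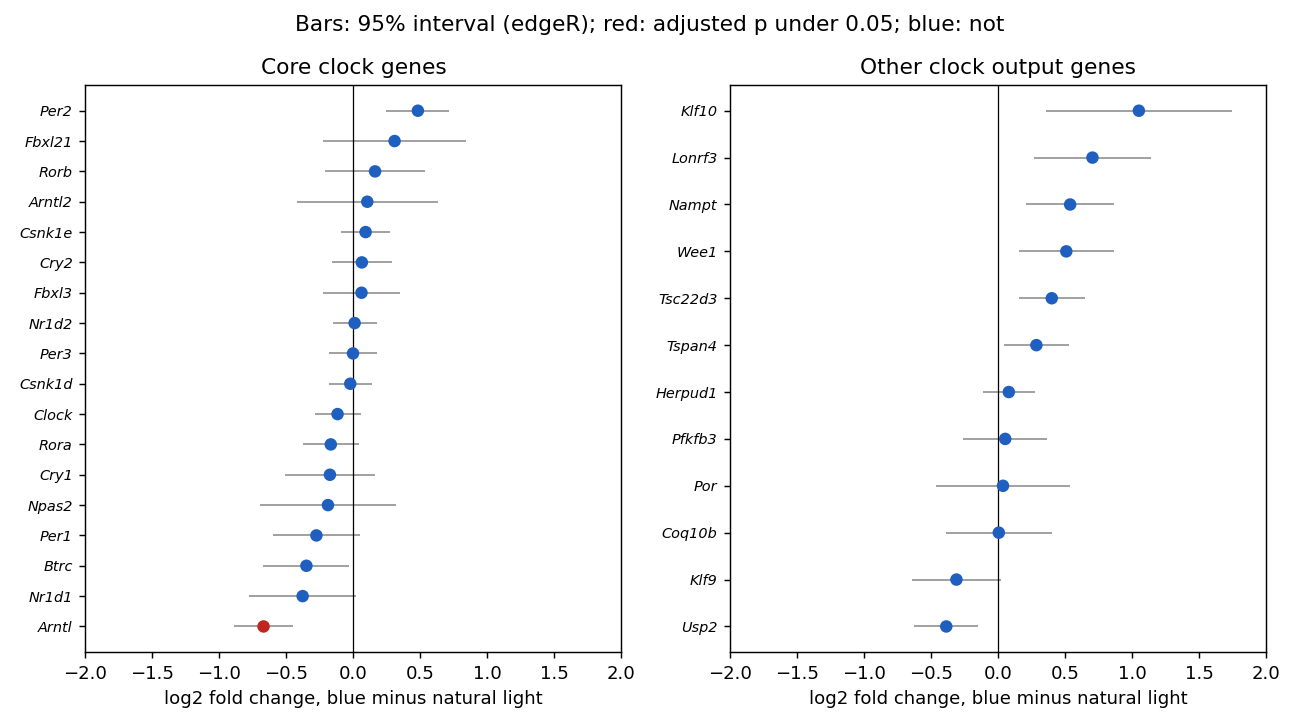
Log2 fold change (horizontal axes, blue minus natural light) with 95% intervals in edgeR for 18 of the 19 core clock genes (left) and 12 other clock output genes (right); red marks an adjusted p under 0.05. Arntl at -0.67 is the only red point.

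Among 12 genes reported as targets of the PAR bZIP factors, 9 had counts enough to be tested, and 0 passed in edgeR, while DESeq2 called 1, limma-voom called 0, and 1 had an unadjusted edgeR p under 0.05. The median log2FC was -0.12. Spon2, a secreted matrix protein, stood at 16.1 and 15.6 CPM under natural light, against 8.47, 10.9 and 8.95 CPM in blue A to C (log2FC -0.74, adjusted p = 0.0687). The values of Per1, a period gene, were -0.28 (adjusted p = 0.378), of the receptor gene Nr1i3 -0.88 (0.469) and of Cry1 -0.18 (0.600). Nr1i3 rested on 1 control, at -0.0053 without control A and -1.40 without control B. Pdxk and Alas1, enzymes of vitamin B6 and heme metabolism named after their values were seen, had log2FC of 0.054 and -0.12. Cyp2a5, a cytochrome P450 also named after its values were seen, ran from 6.08 CPM in blue B to 119 CPM in blue A, with 22.2 and 58.5 CPM in the controls.

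Relatives by protein fold were set beside the regulators. Of 13 tested C/EBP and other bZIP genes 1 rose and 1 fell in edgeR, beside 0.664% and 1.55% of all tested genes. The median log2FC was 0.25. DESeq2 called 3, limma-voom called 2 (2.41% of all tested genes), and 5 had an unadjusted edgeR p under 0.05. All blue libraries lay above both controls for 8 of the 13 and below both for 1, beside 15.6% and 20.1% of all tested genes. Cebpd, an acute-phase activator, rose from 5.79 ± 0.329 CPM (SD, n = 2) to 34.0 ± 7.28 CPM (SD, n = 3), a log2FC of 2.55 with an SE of 0.21 and an adjusted p of 0.0137 in edgeR. Atf4, the factor of the integrated stress response, fell by 0.43 (SE 0.072, adjusted p = 0.0479). Its adjusted p lay between 0.101 and 0.291 with any 1 library left out, and was 0.0628 with DESeq2 size factors, 0.195 with library totals and 0.0523 with no low-count filter. Atf3 had a log2FC of 1.12 (adjusted p = 0.166) and Cebpg one of 0.20 (adjusted p = 0.275).

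Of 8 tested bHLH-Orange genes, the family of Bhlhe40 and Bhlhe41, 1 rose and 0 fell in edgeR, beside 0.664% and 1.55% of all tested genes. The median log2FC was 0.011. DESeq2 called 1, limma-voom called 1, and 1 had an unadjusted edgeR p under 0.05. Hey2, a Notch effector, stood at 14.0 and 13.0 CPM under natural light, against 26.3, 31.2 and 27.2 CPM in blue A to C, and rose by 1.07 (SE 0.11, adjusted p = 0.0192 in edgeR). Hes5, Hes6 and Hes1 had log2FC of -0.53, 0.24 and 0.14 and adjusted p from 0.451 to 0.661. The calls of Cebpd and Hey2 were lost without control A (adjusted p = 0.117 and 0.148), without control B (0.0965 and 0.109) and without blue C (0.0694 and 0.0886).

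Hypoxia and glucocorticoids are known inducers of some of these regulators, and their responsive genes were listed too. Of 14 hypoxia-responsive genes 0 passed in edgeR, while DESeq2 called 1, limma-voom called 0, and 2 had an unadjusted edgeR p under 0.05, and the median log2FC was 0.0031. Ddit4, an inhibitor of mTOR signalling, had a log2FC of -0.50 (adjusted p = 0.0622), the lactate dehydrogenase gene Ldha -0.20 (0.307), Pdk1 0.23 (0.386) and Egln3 -0.21 (0.511).

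Of 12 glucocorticoid-responsive genes 1 rose and 1 fell in edgeR, beside 0.664% and 1.55% of all tested genes. The median log2FC was 0.13. DESeq2 called 4, limma-voom called 2, and 4 had an unadjusted edgeR p under 0.05. All blue libraries lay above both controls for 2 of the 12 and below both for 4, beside 15.6% and 20.1% of all tested genes. The metallothionein Mt2 rose by 1.18 (SE 0.17, adjusted p = 0.0350 in edgeR), from 30.6 and 29.4 CPM to 60.8, 83.7 and 58.7 CPM. The kinase gene Sgk1 fell by 0.68 (SE 0.095, adjusted p = 0.0310 in edgeR), from 296 and 267 CPM to 160, 188 and 181 CPM. Across the fits with 1 library left out, their adjusted p ranged from 0.0306 to 0.224 for Mt2 and from 0.0486 to 0.225 for Sgk1, with the calls of both lost without control A, control B or blue C and that of Sgk1 also without blue B and with library totals as the only scaling (-0.63, adjusted p = 0.0940). Ddit4 and Tsc22d3, whose values stand above, are on this list too and did not pass in edgeR.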

How the data were processed

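Estimated counts per gene symbol were deposited by the authors for 5 mRNA libraries of eyeball total RNA depleted of ribosomal RNA. Their totals differ, so they were taken as not normalised. Per the submitters' processing notes, the build was mm10 and the tools included HISAT2, StringTie, bcl2fastq 2.0, limma and DESeq2, with no roles stated. The counter and its use of strand are not given in the sources used here. Totals ran from 87071487 to 107660103. Values of 4 and 5 occurred 1051 and 1107 times against 751 for 3, so 1 unit need not be 1 fragment and no counting intervals are given. The values are whole numbers, so rounding changed nothing. The mature miRNA table was not used.

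Columns were matched by title and grouped by source name. The groups were compared in R 4.3.3 with edgeR 4.0.16 (filterByExpr, TMM scaling, quasi-likelihood F-test, Benjamini-Hochberg adjustment over all tested genes, threshold 0.05). SE is the absolute log2FC over the root of F, and the 95% interval uses the same degrees of freedom. Alternatives were DESeq2 1.42.0, limma-voom (limma 3.58.1), other scalings and filters, values divided by 4, a block by the titles' letter, leaving out each library, a muscle covariate, and overlapping genes summed. The pipeline was checked on counts with known changes.

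The members and lists were chosen with earlier results of these data known. Named were all 7 members, up to 4 genes with the smallest p of each list, and the 3 nearest genes of the 2 members with the smallest p. The values of 1 core clock gene are not reported here, though it is in the counts. Transcript lengths were not used, so levels are not compared between genes except as ratios followed across libraries.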

Additional observations from a re-analysis of the deposited data

How the results depend on the processing

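None of the 7 regulators passed in edgeR, DESeq2 or limma-voom under any of 16 alternatives, and 101 of their 112 values kept their sign. The lowest adjusted p was 0.149, for Bhlhe40 without blue B, and 4 of the 112 had an unadjusted p under 0.05. Signs turned for Nfil3 (0.0038 as reported) in limma-voom (-0.0084), without control A (-0.011), without blue B (-0.17) and with the muscle covariate (-0.040). They turned for Ciart (0.0010) in limma-voom (-0.031), with the replicate block (-0.084), with overlapping genes summed (-0.069), without control B (-0.078), without blue A (-0.067) and without blue C (-0.066), and for Bhlhe41 without control A (0.036). With 1 library left out Nfil3 ranged from -0.17 to 0.15, Ciart from -0.078 to 0.16 and Bhlhe41 from -0.33 to 0.036. Over all genes 126 rose and 295 fell in edgeR. Scaling by library totals alone left 150 lower, DESeq2 gave 840 higher and 875 lower, and the muscle covariate 323 and 527. Scalings moved the median of all genes by at most 0.046. With 1 library left out, calls ran from 0 to 98 higher and from 0 to 213 lower, both 0 without control B in edgeR, where 2872 genes had an unadjusted p under 0.05. Without control A 6 rose and 2 fell, and without blue C 6 rose and 5 fell. The cause was not tested beyond the loss of samples. A lone remaining control was taken to vary as the blue libraries do.

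With the letter as a replicate block edgeR called 0 genes higher and 0 lower, and 1455 had an unadjusted p under 0.05. Same-lettered libraries deviated from their group means with correlations of -0.18 for A and -0.15 for B, and the labels tie the letter to nothing, so libraries were not treated as paired. With that replicate block Dbp had a log2FC of 0.053. Precision differed between the regulators, with 95% intervals from 0.916-fold to 1.16-fold for Tef and from 0.702-fold to 1.43-fold for Nfil3.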
